A study of Mus musculus with 12 samples.

Results

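The genes described here are 8 enzymes of cholesterol metabolism, Hmgcs1, Idi1, Fdps, Fdft1, Sqle, Lss, Cyp51 and Cyp46a1, taken by name from a table of 24318 genes. The tissue was hippocampus, taken at an age of 7 months from 5xFAD mice and from wild-type (WT) mice, and its RNA was sequenced after removal of ribosomal RNA. The 5xFAD strain carries transgenes with mutations of familial Alzheimer's disease, human APP among them, which regulatory sequence of Thy1 drives in neurons. The labels give genotype, tissue and age, and state neither sex, littermate status, pooling nor any treatment. The 6 libraries with the title prefix CG, 3 from 5xFAD and 3 from WT mice, gave levels per gene, and 6 with the prefix AT, likewise 3 and 3, gave junctions of circular RNA. The labels do not tie replicates to different mice, and each p-value below is therefore relative to the variation among these libraries, part of which may be technical.

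Cholesterol in the brain is made in place, because lipoproteins of the blood do not cross the blood-brain barrier. Hmgcs1 makes HMG-CoA from acetyl-CoA units, Idi1 and Fdps build the isoprenoid farnesyl diphosphate, Fdft1 and Sqle make squalene and its epoxide, Lss closes the sterol rings, and Cyp51 starts the trimming of lanosterol. Transcription of these genes is driven by SREBP2, the product of Srebf2, when membrane sterol is low, while Cyp46a1, an enzyme mainly of neurons, hydroxylates cholesterol so that it can leave the brain.

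Promoter sequences are shown for 2 early synthesis enzymes, a late one and the turnover enzyme, so that the start regions of both arms can be compared. They are RefSeq sequences of build GRCm38.p6, each running from 250 bases before the annotated start of the gene to 50 after it, and 5 of the 8 genes were found in that set. Capitals mark 3 motifs searched on both strands, a sterol-regulatory-element-like motif (TCACNCCAC), CCAAT, and the GC box GGGCGG. None of the marked matches of different motifs overlap.
Hmgcs1, chr13:119690101-119690400, plus strand: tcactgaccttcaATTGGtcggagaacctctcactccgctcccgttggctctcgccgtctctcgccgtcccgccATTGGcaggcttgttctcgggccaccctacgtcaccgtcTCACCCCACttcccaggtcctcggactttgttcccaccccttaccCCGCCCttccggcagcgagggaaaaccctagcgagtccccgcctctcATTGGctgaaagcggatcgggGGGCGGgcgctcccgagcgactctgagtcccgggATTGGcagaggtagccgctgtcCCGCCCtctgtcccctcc
Idi1, chr13:8885356-8885655, plus strand: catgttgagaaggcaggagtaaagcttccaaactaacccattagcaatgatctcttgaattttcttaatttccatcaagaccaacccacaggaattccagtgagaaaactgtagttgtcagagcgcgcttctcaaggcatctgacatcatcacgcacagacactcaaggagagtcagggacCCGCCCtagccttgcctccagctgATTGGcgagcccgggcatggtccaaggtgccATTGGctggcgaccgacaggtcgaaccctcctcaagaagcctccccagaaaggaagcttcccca
Cyp51, chr5:4104648-4104947, minus strand: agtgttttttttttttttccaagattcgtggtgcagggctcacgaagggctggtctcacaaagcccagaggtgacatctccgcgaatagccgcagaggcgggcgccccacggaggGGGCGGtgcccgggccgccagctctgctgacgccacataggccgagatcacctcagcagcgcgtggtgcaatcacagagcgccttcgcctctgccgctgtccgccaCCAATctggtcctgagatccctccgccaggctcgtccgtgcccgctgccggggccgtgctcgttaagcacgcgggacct
Cyp46a1, chr12:108334066-108334365, plus strand: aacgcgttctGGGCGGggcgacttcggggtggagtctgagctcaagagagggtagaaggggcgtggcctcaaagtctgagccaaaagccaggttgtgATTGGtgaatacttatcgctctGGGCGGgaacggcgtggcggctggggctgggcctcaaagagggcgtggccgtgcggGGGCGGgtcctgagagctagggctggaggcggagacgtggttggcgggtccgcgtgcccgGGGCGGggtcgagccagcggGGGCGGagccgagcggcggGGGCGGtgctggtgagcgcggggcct

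The sterol-regulatory-element-like letters occurred once among these windows, in Hmgcs1, beginning 137 bases before the start. They were found in 1 of the 5 genes with a sequence, in 0 of 12 other synthesis genes with one, and in 1.24% of 32851 promoters of the same length. CCAAT and the GC box were each in all 5 genes, Lss included, and each in 11 of the 12 other synthesis genes, against 37.4% and 35.7% of all promoters. A gene was counted if any of its promoters had a match, and Pmvk and Dhcr7 had more than 1, while the percentages count single promoters. Cyp46a1 held 6 GC boxes and 1 CCAAT, and Hmgcs1 3 and 4. A match describes letters in these windows and is not evidence of a bound site.

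Levels are in FPKM, fragments per kilobase of transcript scaled to the size of the library, and so are shares of a library and not amounts. Total FPKM was 385214 to 412157 per library, and the depth in reads is unknown. From the steps between low values, libraries had 0.793 to 1.15 times the depth of WT replicate 1. Thy1, whose regulatory sequence drives the transgenes, was at 1136, 1172 and 305 FPKM in 5xFAD replicates 1 to 3 and at 296 to 340 in WT. The library labelled 5xFAD replicate 3 thus goes against its label, and log2 differences are given with it (6 libraries) and without it (5 libraries). Xist, the transcript of the silenced X chromosome, was under 1 FPKM in replicate 1 of each genotype and 99.9 to 112 in the others, so replicate 1 was male and the others female. Markers of hippocampal neurons were present in every library (Prox1 of granule cells at 20.4 to 25.4 FPKM), and summed choroid plexus markers were 56.2, 73.2 and 492 FPKM in 5xFAD and 2845, 42.2 and 66.6 in WT replicates 1 to 3.

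In the 2 5xFAD libraries that carry high Thy1, 5 of the 6 synthesis enzymes with values (Idi1, Fdps, Fdft1, Sqle and Cyp51) lay above every WT library, as did 10.6% of all genes tested. The values of Cyp46a1 in those libraries lay inside the WT range. Fdps, Fdft1 and Sqle averaged 1.49, 1.46 and 1.39 times the WT mean in those libraries, and Idi1, Lss and Cyp51 1.17, 1.13 and 1.11 times, and no test compared one enzyme with another. None of these differences passed limma, a linear model fitted to all genes on log2(FPKM + 1), at a Benjamini-Hochberg adjusted p under 0.05. Of the 7 genes that could be tested, 0 were called in the 6 libraries and 0 in the 5, where limma called 0.0069% of 14500 genes and 1.2% of 14527. At an unadjusted p under 0.05, 2 of the 7 were counted in the 6 libraries (Fdps and Fdft1) and 3 in the 5 (these and Sqle), against 2.92% and 5.91% of all genes.

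Hmgcs1, which condenses acetyl-CoA with acetoacetyl-CoA, was listed at 0 in all 6 libraries. An exact 0 in a table of this kind can be a failed estimate, and 5246 of the 24318 genes were at 0 in every library. Hmgcs1 therefore has no value here, and every count below covers the other 7 genes.

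**Figure D1:**
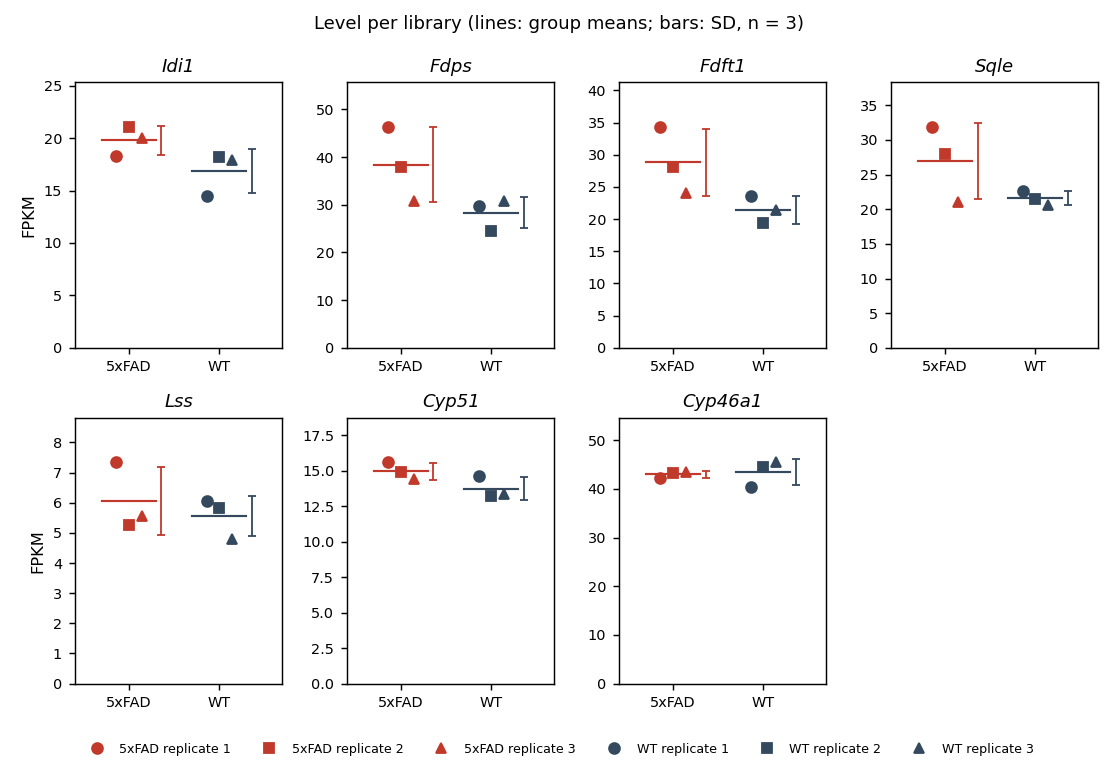
FPKM (vertical axes, each starting at 0) of the 7 enzymes with values, in 3 5xFAD libraries (red, left) and 3 WT libraries (dark, right) per panel, with symbols for replicate numbers, lines for group means and bars for the SD. In Fdps, Fdft1 and Sqle, 5xFAD replicates 1 and 2 lie above the 3 WT libraries and replicate 3 lies at 30.7, 24.05 and 21.04 FPKM, while Cyp46a1 covers 40.4 to 45.5 FPKM in all 6.

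Among the enzymes that make isoprenoids, Idi1, which interconverts the 5-carbon building blocks, had 18.3, 21.1 and 20.0 FPKM in 5xFAD and 14.5, 18.2 and 17.9 in WT. Every 5xFAD value lay above every WT value, although 5xFAD replicate 1 and WT replicate 2 almost met. The log2 difference was 0.22 (SE 0.11) in the 6 libraries and 0.22 (SE 0.14, 95% interval -0.11 to 0.54) in the 5. The library labelled 5xFAD replicate 3 was at 1.18 times the WT mean. The difference rested in part on the low WT replicate 1, without which it was 0.12 in the 6 libraries and 0.12 in the 5, and on 5xFAD replicate 2, without which it was 0.12 in the 5. Idi1 was also lower in the male than in the female WT libraries, at 0.803 times their mean.

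Fdps, which joins isoprenoid units into farnesyl diphosphate, had 46.4, 38.0 and 30.7 FPKM in 5xFAD and 29.8, 24.6 and 30.7 in WT. Replicates 1 and 2 of 5xFAD were clear of all WT libraries, and replicate 3 was above the highest WT library only in the second decimal. It averaged 42.2 ± 5.94 FPKM in the 2 5xFAD libraries (SD, n = 2) and 28.4 ± 3.29 in WT (SD, n = 3). The difference was 0.56 on the log2 scale (SE 0.14, 95% interval 0.22 to 0.89, limma adjusted p = 0.225) in the 5 libraries and 0.41 (SE 0.16, limma adjusted p = 1.00) in the 6, where it was 0.27 without 5xFAD replicate 1. With sex, as read from Xist, added as a term, it was 0.53 (limma adjusted p = 0.151) in the 5 libraries and 0.41 (limma adjusted p = 0.937) in the 6. In human, FDPS and CYP51A1 have processed pseudogenes, and how the authors handled reads shared by such copies is unknown here.

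Fdft1, squalene synthase, takes farnesyl diphosphate into the sterol branch. It had 34.4, 28.1 and 24.05 FPKM in 5xFAD and 23.6, 19.3 and 21.4 in WT. The groups did not overlap, and replicate 3 of 5xFAD was closer to the highest WT library than to the next 5xFAD one. The log2 difference was 0.52 (SE 0.14, 95% interval 0.20 to 0.84, limma adjusted p = 0.245) in the 5 libraries and 0.40 (SE 0.14, limma adjusted p = 1.00) in the 6.

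Sqle, squalene epoxidase, a step at which flux through the sterol branch is controlled, had 31.9, 27.9 and 21.04 FPKM in 5xFAD and 22.7, 21.4 and 20.6 in WT. Replicates 1 and 2 of 5xFAD stood above WT and the library labelled 5xFAD replicate 3 was inside the WT range. Sqle was the steadiest synthesis enzyme across WT libraries, with a coefficient of variation of 4.71%, against 5.85% to 12.2% for the other 5. Its log2 difference was 0.45 (SE 0.11, 95% interval 0.19 to 0.72, limma adjusted p = 0.212) in the 5 libraries and 0.29 (SE 0.15, limma adjusted p = 1.00) in the 6, where it was 0.16 without 5xFAD replicate 1.

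The sterol-forming enzymes at the end of the set differed less. Lss, lanosterol synthase, was the least abundant of the 7, with 7.34, 5.27 and 5.55 FPKM in 5xFAD and 6.05, 5.83 and 4.81 in WT. Only 5xFAD replicate 1 lay above WT, and the log2 difference of 0.14 (SE 0.17) in the 5 libraries became -0.062 without it, and 0.10 (SE 0.14) in the 6 became -0.030. Cyp51, the demethylase of lanosterol, had 15.6, 14.9 and 14.4 FPKM in 5xFAD and 14.7, 13.2 and 13.4 in WT, with the library labelled 5xFAD replicate 3 inside the WT range. Its difference was 0.14 (SE 0.11, 95% interval -0.12 to 0.40) in the 5 libraries and 0.12 (SE 0.089) in the 6.

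Cyp46a1, the turnover enzyme, was the most abundant of the 7 in WT and the one with the smallest difference. It had 42.2, 43.4 and 43.5 FPKM in 5xFAD and 40.4, 44.5 and 45.5 in WT, so that every 5xFAD value lay inside the WT range. The log2 difference was -0.020 (SE 0.11, 95% interval -0.27 to 0.23) in the 5 libraries and -0.012 (SE 0.083, 95% interval -0.20 to 0.18) in the 6.

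In WT, per-length levels ran from Cyp46a1 (43.5 FPKM on average) through Fdps (28.4), Sqle (21.6), Fdft1 (21.4), Idi1 (16.9) and Cyp51 (13.7) to Lss (5.57). Sqle and Fdft1 overlapped between WT libraries, as did Idi1 and Cyp51, and the other neighbours in this order did not. In 5xFAD replicate 1 the order of the first pair turned, with Fdps at 46.4 FPKM above Cyp46a1 at 42.2.

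**Figure D2:**
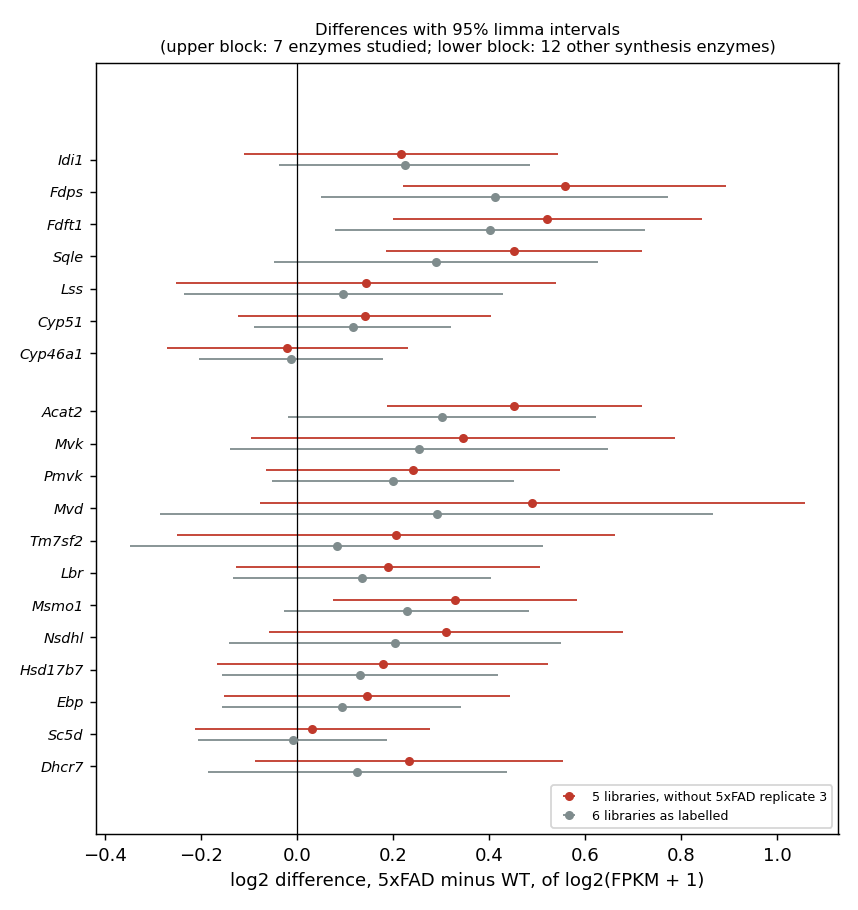
Log2 differences of 5xFAD minus WT (horizontal axis, on the log2(FPKM + 1) scale) with 95% limma intervals, for 7 enzymes (upper block) and 12 of the other synthesis enzymes (lower block), in the 5 libraries without 5xFAD replicate 3 (red) and in all 6 (grey). Fdps at 0.56, Fdft1 at 0.52 and Sqle at 0.45 lead the upper block and Cyp46a1 sits at -0.020 in the 5 libraries.

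As a group, 6 of the 7 tested genes had positive differences in the 6 libraries and 6 of 7 in the 5, where 45.8% and 45.7% of all genes tested did. The median log2 difference of the 6 synthesis enzymes with values was 0.26 in the 6 libraries and 0.33 in the 5, beside -0.011 and -0.015 over all genes. Every 5xFAD library was above every WT library for 3 of the 7 (Idi1, Fdps and Fdft1), against 2.92% of all genes. With replicates 1 and 2 alone this held for 5 of the 7 (Sqle and Cyp51 as well), against 10.6%. The opposite, 5xFAD below every WT library, held for 0 of the 7 with all 3 libraries and 0 with replicates 1 and 2, against 2.74% and 7.5% of all genes. Without WT replicate 1, the library high in choroid plexus markers, the median of the synthesis enzymes was 0.24 in the 6 libraries and 0.34 in the 5. The members were named with results of these data known, so these shares describe the set and do not test it.

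The summed FPKM of the 6 synthesis enzymes was 154, 135 and 116 in 5xFAD and 111, 103 and 109 in WT. All 3 5xFAD sums lay above the WT sums, and the library labelled 5xFAD replicate 3 was 1.08 times the WT mean, against 1.43 and 1.26 for replicates 1 and 2. The highest value of a gene was in 5xFAD replicate 1 for 5 of the 6 and in replicate 2 for Idi1, and the share over all genes was not computed. Within the male libraries, 5xFAD was 1.56 times WT for Fdps, 1.46 for Fdft1 and 1.41 for Sqle, and 1.26 for Idi1, 1.21 for Lss and 1.06 for Cyp51. The male WT library is the one high in choroid plexus markers. Within the female ones, 5xFAD replicate 2 was 1.37, 1.38 and 1.33 times the mean of WT replicates 2 and 3 for Fdps, Fdft1 and Sqle. The library labelled 5xFAD replicate 3 was 1.11, 1.18 and 1.00 times that mean. For Idi1, Lss and Cyp51, replicate 2 was at 1.17, 0.989 and 1.12 times it, and replicate 3 at 1.11, 1.04 and 1.08 times. Each of these comparisons rests on 1 5xFAD library and has no replicate check.

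The RNA came from whole tissue, so more cells of a type and more RNA per cell cannot be told apart. Summed FPKM of 10 microglia markers was 575, 523 and 134 in 5xFAD and 125, 141 and 141 in WT, with 10 of 10 above all WT libraries in 5xFAD replicates 1 and 2. The 10 include Cst7 and Itgax, with WT means of 0.275 and 0.0682 FPKM. Both reached the filter of 0.5 FPKM only through 5xFAD replicates 1 and 2, so their place in this count is not independent of the filter. For 8 oligodendrocyte markers, of the cells that make myelin and much of its cholesterol, the sums were 2031, 2054 and 1631 in 5xFAD and 1831, 1666 and 1657 in WT, with 7 of 8 above. For 8 astrocyte markers the sums were 1636, 1750 and 1291 in 5xFAD and 1092, 1378 and 1185 in WT, with 4 of 8 above. Gfap alone was at 589, 449 and 106 FPKM in 5xFAD and 118, 99.1 and 95.9 in WT. In 5xFAD replicates 1 and 2 the median astrocyte marker was at 1.12 times its WT mean, against 1.39 for the sum. For 9 neuron markers the sums were 2577, 2614 and 2725 in 5xFAD and 2628, 2911 and 2840 in WT, with 0 of 9 above and 2 of 9 below. Of all genes, 10.6% lay above every WT library in 5xFAD replicates 1 and 2, and 7.5% lay below. None of these markers was at 0 in every library, and the part of cell makeup in the values of the cholesterol enzymes was not tested.

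**Figure D3:**
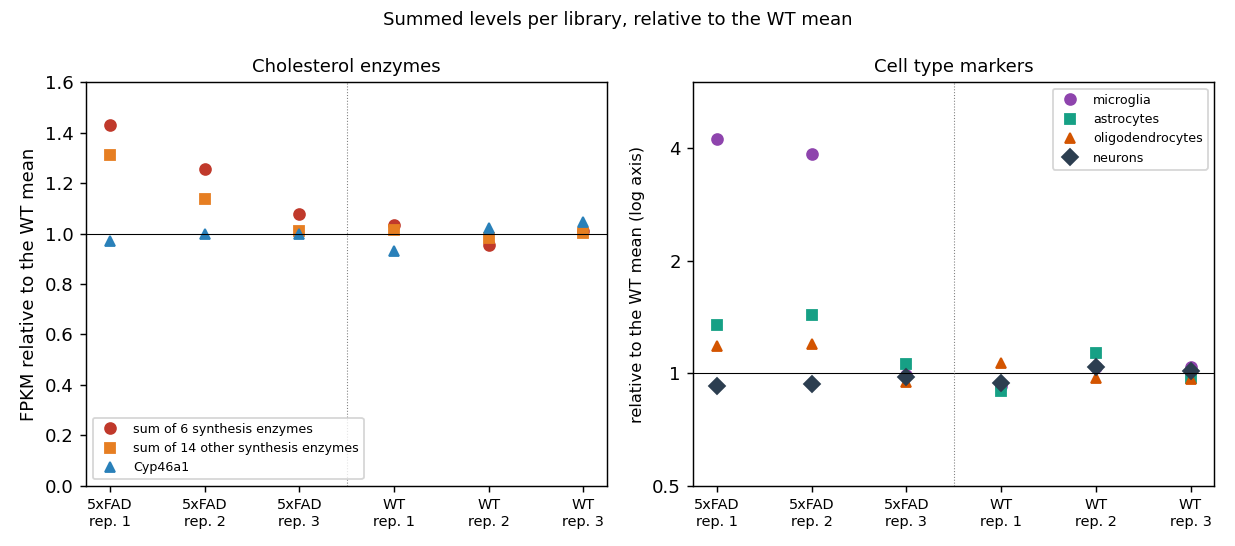
Summed FPKM of the 6 synthesis enzymes, of 14 other synthesis enzymes and of Cyp46a1 (left, linear axis from 0), and of cell type marker lists (right, log axis), each relative to its WT mean, by library. The synthesis sums reach 1.43 and 1.26 in 5xFAD replicates 1 and 2 and Cyp46a1 stays between 0.930 and 1.05, while microglia markers in those 2 libraries are several times their WT mean.

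The remaining enzymes of the synthesis pathway had no call either. Of 14, limma called 0 in the 6 libraries and 0 in the 5, where it called 0.0069% and 1.2% of all genes. At an unadjusted p under 0.05 there were 1 and 4 of the 14, against 2.92% and 5.91% of all genes. Differences were positive for 13 of 14 in the 6 libraries (14 after quantile normalization, and 11 without 5xFAD replicate 1) and for 14 of 14 in the 5. Over all genes 45.8% and 45.7% were positive. The medians of the 14 were 0.20 and 0.27. Without 5xFAD replicate 1 these medians were 0.072 and 0.15. All 14 were above their WT mean in 5xFAD replicate 1, 13 in replicate 2 and 8 in the library labelled replicate 3. In WT replicates 1 to 3 the same count was 8, 7 and 5. The highest of the 6 values was in 5xFAD replicate 1 for 13 of them. For these counts per library the share over all genes was not computed, so a trait of the library cannot be told from one of the pathway.

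Acat2, the thiolase that supplies acetoacetyl-CoA, had 17.4, 16.1 and 11.98 FPKM in 5xFAD and 12.5, 11.3 and 12.1 in WT, a difference of 0.45 (SE 0.11, limma adjusted p = 0.208) in the 5 libraries and 0.30 (SE 0.14) in the 6. Msmo1, which removes methyl groups from the sterol ring, had 57.2, 51.7 and 43.9 FPKM in 5xFAD and 42.8, 41.4 and 45.3 in WT. In both genes the library labelled 5xFAD replicate 3 was inside the WT range, and the other 5xFAD libraries were above it. The difference of Msmo1 was 0.33 (SE 0.11) in the 5 libraries and 0.23 (SE 0.11) in the 6, and neither passed.

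By pattern over the 6 libraries, genes were ranked by the root mean square difference between their centred log2(FPKM + 1) values and the mean profile of the 6 synthesis enzymes, among 9622 genes with a mean of at least 5 FPKM. Among the closest 5 were Ddr1, a collagen receptor kinase (0.0235), Mpst, a sulfurtransferase (0.0362), Lmf1, a lipase maturation factor (0.0415), and Msmo1 (0.0479). Of 12 other synthesis enzymes ranked, 5 were among the closest 96. Among the 5 closest to Cyp46a1 were Otud5 (0.0104), Eno2 (0.0128), Mapkap1 (0.0165) and Ywhaq (0.0183). These distances are descriptions over 6 libraries, and a nearly level profile such as that of Cyp46a1 lies close to many genes.

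Regulators of the SREBP pathway were read next. Limma called 0 of 10 in either set, and 1 and 4 had an unadjusted p under 0.05, against 2.92% and 5.91% of all genes. Positive differences were found for 8 of 10 in the 6 libraries (7 at equal total FPKM, 9 after quantile normalization) and 6 of 10 in the 5, against 45.8% and 45.7%. With 1 library left out of the 6 the positive count ran from 6, without WT replicate 1 or 5xFAD replicate 3, to 10, without WT replicate 2. Srebf2, the transcription factor of the synthesis genes, had 48.0, 44.2 and 42.5 FPKM in 5xFAD and 36.6, 45.4 and 37.6 in WT, with overlapping groups. Stard4, a sterol carrier and SREBP2 target, had 9.06, 8.76 and 7.26 FPKM in 5xFAD and 4.36, 7.50 and 5.04 in WT, a difference of 0.52 (SE 0.18) in the 6 libraries and 0.61 (SE 0.20) in the 5. The library labelled 5xFAD replicate 3 was inside the WT range for Stard4, and the other 5xFAD libraries were above it.

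Insig1, a sterol-sensing retainer of SREBP in the endoplasmic reticulum, had 31.1, 28.8 and 27.0 FPKM in 5xFAD and 24.3, 26.6 and 23.9 in WT. The groups did not overlap and neither the difference of 0.21 (SE 0.092) in the 6 libraries nor that of 0.25 (SE 0.11) in the 5 passed. Mylip, a ubiquitin ligase and target of liver X receptors, had 10.1, 11.5 and 7.63 FPKM in 5xFAD and 7.25, 8.32 and 8.08 in WT. The difference of Mylip was 0.41 (SE 0.13) in the 5 libraries and 0.26 (SE 0.15) in the 6. That of Srebf1 was 0.38 (SE 0.13) in the 5 and 0.20 (SE 0.16) in the 6, and none of these passed the test.

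**Figure D4:**
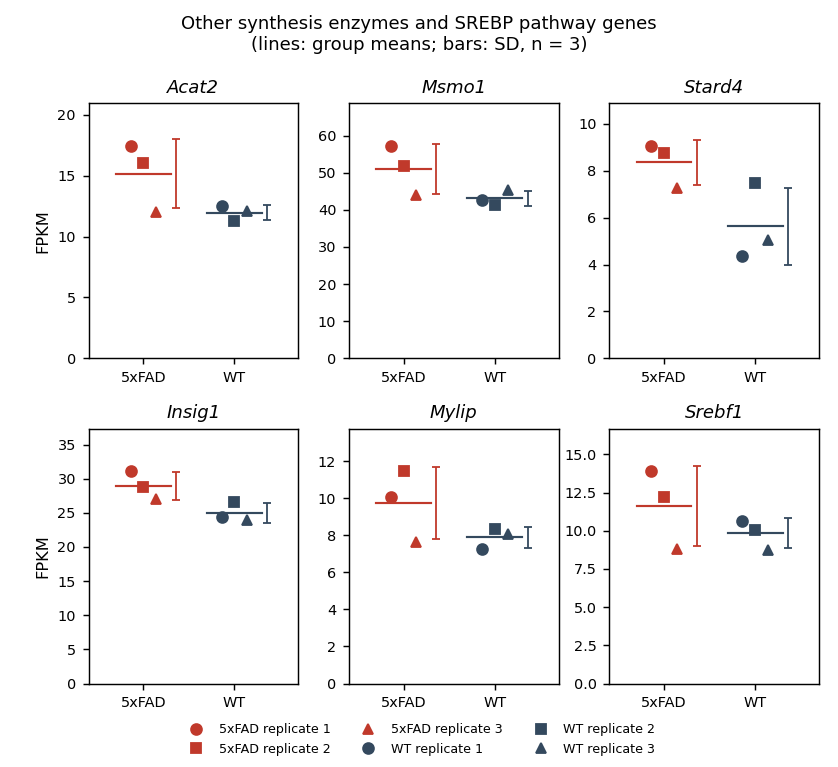
FPKM (vertical axes, each starting at 0) of 2 other synthesis enzymes (Acat2 and Msmo1) and 4 SREBP pathway genes (Stard4, Insig1, Mylip and Srebf1) in 3 5xFAD libraries (red, left) and 3 WT libraries (dark, right), with lines for group means and bars for the SD. In Insig1 the WT libraries lie at 23.9 to 26.6 FPKM, below the 5xFAD values of 31.1, 28.8 and 27.0, and in Acat2 replicates 1 and 2 of 5xFAD alone lie above WT.

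Other routes that use or move cholesterol had 0 calls as well. Beside the counts that follow, 45.8% of all genes were positive in the 6 libraries and 45.7% in the 5. Of 8 oxysterol and ester enzymes, 7 were positive in the 6 libraries (6 at equal total FPKM) and 6 in the 5, with medians of 0.093 and 0.19. With 1 library left out the median ran from 0.012, without 5xFAD replicate 2 (5 positive), to 0.19 in the 6 libraries, and was 0.031 without WT replicate 3 and 0.15 without WT replicate 2. In the 5 it ran from 0.12, without WT replicate 3, to 0.29, without WT replicate 2. Ch25h, a cholesterol hydroxylase of activated macrophages, was at 1.98, 0.791 and 0.0558 FPKM in 5xFAD and 0.0643, 0.325 and 0.197 in WT, a difference of 0.96 (SE 0.24, limma adjusted p = 0.217) in the 5 libraries and 0.58 (SE 0.34) in the 6, at levels near the filter. With a WT mean of 0.195 FPKM, Ch25h reached the filter of 0.5 FPKM only through 5xFAD replicates 1 and 2. Its difference is therefore not independent of the filter, and it is included in the list's counts and medians for the 6 and the 5 libraries. Cyp27a1, which makes another oxysterol, differed by 0.33 (SE 0.15) in the 5 and by 0.16 (SE 0.18) in the 6. Of 12 efflux and uptake genes, 7 were positive in the 6 libraries and 8 in the 5, with medians of 0.061 and 0.073. Single libraries moved these medians too: in the 6 they were 0.0072 without WT replicate 3, 0.022 without WT replicate 1 and 0.10 without WT replicate 2, and in the 5 they were 0.034, 0.049 and 0.16 without the same libraries and 0.045 without 5xFAD replicate 2. Npc2, a sterol carrier of lysosomes, had 19.7, 19.4 and 10.6 FPKM in 5xFAD and 13.3, 8.77 and 10.03 in WT (0.83, SE 0.17, limma adjusted p = 0.0939 in the 5 libraries, and 0.56, SE 0.24 in the 6). Apoe differed by 0.79 (SE 0.21) in the 5 libraries and 0.52 (SE 0.26) in the 6. The exporter Abca1 differed by 0.50 (SE 0.12) in the 5 and 0.31 (SE 0.17) in the 6.

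Of 9 genes of other isoprenoid branches, limma called 0, and 4 were positive in the 6 libraries and 4 in the 5, against 45.8% and 45.7% of all genes. Their medians of -0.0013 and -0.020 changed sign when single libraries were left out. Fntb, the beta subunit of the enzyme that attaches farnesyl groups to proteins, had 9.71, 7.46 and 8.46 FPKM in 5xFAD and 7.01, 8.49 and 7.18 in WT, with overlapping groups. Dhdds, of dolichol synthesis, differed by -0.14 (SE 0.11) in the 6 libraries and -0.076 (SE 0.13) in the 5. Ggps1, which makes the next longer isoprenoid, had 18.8, 24.4 and 22.3 FPKM in 5xFAD and 18.5, 22.8 and 23.1 in WT (chosen after its values were seen).

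The AT table offered a second readout. Of its 7025 back-splice junctions, 0 were assigned to any of the 8 enzymes, and 18 to 9 genes of the wider lists. Every junction listed had a signal in at least 3 of the 6 libraries, and rarer junctions of the 8 genes were not analysed here. Recovered reads were 191408, 683540 and 659414 in 5xFAD and 438790, 695539 and 695528 in WT. The most abundant of the 18, in Pdss2, an enzyme of ubiquinone synthesis, at chr10:43113676-43133353 of mm9 as the authors' file gives it, had signals of 91.8, 87.4 and 97.5 in 5xFAD and 112, 94.6 and 75.3 in WT, with overlapping groups. The next 3 were in Lrp8, Nceh1 and Pdss2 again, with log2 differences of 0.12 (SE 0.44), -0.28 (SE 0.46) and -0.53 (SE 0.47). Limma called 0% of the 7025 junctions, with 399 at an unadjusted p under 0.05, and edgeR on recovered reads called 0, with 202.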

How the data were processed

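The authors deposited FPKM per gene for the CG libraries and a signal per junction for the AT libraries, per the file headers. RNA was extracted with TRIzol, depleted with Ribo-Zero and sequenced paired-end on a HiSeq, per the labels' protocols. The submitters' processing notes name mm9 and DESeq. Not given in the sources used here are the aligner, the quantifier, the caller of junctions, the annotation and whether strand was used. The authors also deposited a log2 ratio for each junction with p-values of their own, which were not used. The signal was in whole multiples of a step in 100% of values (within 0.01), which gave the recovered reads.

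Genes with a mean of at least 0.5 FPKM were fitted with limma 3.58.1 in R 4.3.3, with a mean trend, on log2(FPKM + 1), two-sided, with Benjamini-Hochberg adjustment over all genes. Folds of low genes are understated on it. Junctions were fitted likewise, with edgeR 4.0.16 quasi-likelihood on recovered reads as an alternative. Fits with a term for sex (male where Xist was under 1 FPKM) were added after seeing the data. Limma on genes and edgeR on junctions were tested on simulated data. No 2 CG libraries were identical (correlations of log2 values 0.969 to 0.990). The 8 genes and all lists were chosen with earlier results of these data known. Named genes are the 8, up to 4 per list by smallest p in each fit, the 5 nearest in pattern and the 4 most abundant junctions. Srebf2, Ggps1, Thy1, Xist and Prox1 were named outside this rule, and some genes that it names are not reported here. No protein sequences were used here. The files and the promoter sequences are of different builds and were joined by symbol alone.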

Additional observations from a re-analysis of the deposited data

How the results depend on the processing

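No enzyme was called by limma in the 6 libraries under any alternative run, and the median of the synthesis enzymes stayed positive throughout. With each library left out in turn, genes called over the whole table ran from 1 to 174 in the 6 libraries, the 174 being without 5xFAD replicate 3, and the median log2 difference from 0.22 to 0.33. Without replicate 1 of both genotypes the median was 0.19. In the 5 libraries, genes called ran from 35 to 174: 35 without 5xFAD replicate 1, 52 without 5xFAD replicate 2, 106 without WT replicate 2 and 84 without WT replicate 3. The median ran from 0.34 to 0.45, highest without 5xFAD replicate 2. The wider lists were put through the same alternatives as a step chosen after seeing the data, and their only calls were 1 efflux and uptake gene in the 5 libraries with array quality weights and 1 without WT replicate 1. Those fits called 257 of 14527 and 174 of 14498 genes over the whole table. Fits that leave 1 5xFAD library assume that it varies like WT.

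Same-numbered CG libraries deviated together for replicates 1 and 2 (correlations 0.415 and 0.278) but not 3 (0.0398), and the numbers were not taken as pairing. These values cannot settle it, because the third pair holds the library that goes against its label and replicate 1 was male in both genotypes. With replicate as a block, 1 enzyme was called in the 5 libraries, Fdps (log2 difference 0.62, limma adjusted p = 0.0410), and 0 in the 6. That fit called 201 of all 14527 genes in the 5 libraries and 1 of 14500 in the 6. In the 5, WT replicate 3 was alone in its block, and the Fdps difference was the same as without that library (0.62). A fit with sex as a term, chosen after seeing the data, called 0 enzymes in the 6 libraries and 0 in the 5. Over all genes it called 1 of 14500 and 194 of 14527.

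Among the enzymes and named junctions, directions turned in Lss, Cyp46a1 and 3 junctions, all of them uncalled. Members of the wider lists turned too: without 5xFAD replicate 1, 3 of the 14 other synthesis enzymes were negative in the 6 libraries, against 1 with it, and without WT replicate 1, 4 of 10 SREBP regulators, against 2 with it. With each library left out in turn, the log2 difference of Lss ran from -0.030 to 0.18 in the 6 libraries and from -0.062 to 0.35 in the 5, negative without 5xFAD replicate 1. That of Cyp46a1 ran from -0.062 to 0.021 in the 6, positive without 5xFAD replicate 1 (0.00055), WT replicate 2 (0.0046) or WT replicate 3, and from -0.070 to 0.013 in the 5, where the replicate block also gave 0.013. The main Pdss2 junction was at 0.017 by edgeR and ran from -0.15 to 0.13, the Lrp8 junction from -0.31 to 0.39 and the Nceh1 junction from -0.53 to 0.017. The cause of these turns was not tested. Precision is limited by 3 libraries per group and an unknown read depth of the gene table.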
